A study of Mus musculus with 2 samples.

Results

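The genes described are the muscle miRNA genes of the miR-1, miR-133 and miR-206 families in the embryonic mouse heart. They are Mir1a-1, Mir1b, Mir133a-1, Mir133a-2, Mir133b and Mir206. They were chosen by name, through the Ensembl identifiers that GENCODE pairs with these symbols, and make up 6 of the 1973 miRNA genes listed in the deposited tables. Mir1a-2 is the remaining miR-1a gene. It has no row of its own, so the reads on the strand opposite to Mir1b, where it lies, were read in its place.

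Small RNA was sequenced by microRNA-seq from whole hearts of healthy B6NCrl mouse embryos at embryonic day 16.5 (E16.5), with both sexes pooled. The labels give no treatment and no genetic change. They define 1 group of 2 libraries, given as biological replicates from separate pools of hearts, with 41 embryos in the pool of replicate 2. The tissue is a pool of all heart cell types, so fewer cells of a type and less of a miRNA per cell cannot be told apart.

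A miRNA is cut from a hairpin in a longer transcript, and either arm of the hairpin can give a mature RNA. The seed, bases 2 to 8 of the mature RNA, pairs with target messages. In vertebrates miR-1 and miR-133 genes lie side by side and are transcribed together in heart and skeletal muscle. There miR-1 is known for promoting muscle differentiation, and miR-133 for limiting smooth muscle genes and regulating myoblast growth. Mir206 and Mir133b form the corresponding pair of skeletal muscle.

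The sequences below show what distinguishes the Mir206 and Mir133b pair, and how close miR-206 is to the miR-1a family. They are RefSeq's on build GRCm38.p6, written 5′ to 3′. RefSeq's table held sequences for 3 of the 7 genes: Mir206, Mir133b and Mir1a-1. For Mir1a-1 it held the 5p arm only. In the hairpins the capitals mark the mature arms, and in the mature RNAs they mark the seed.
Mir206 hairpin, chr1:20679010-20679082, plus strand: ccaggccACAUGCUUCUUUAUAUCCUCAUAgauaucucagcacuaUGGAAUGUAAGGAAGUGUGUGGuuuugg
Mir133b hairpin, chr1:20682769-20682887, plus strand: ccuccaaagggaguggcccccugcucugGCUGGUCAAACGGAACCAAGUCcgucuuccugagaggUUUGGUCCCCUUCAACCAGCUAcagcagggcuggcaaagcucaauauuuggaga
miR-206-3p: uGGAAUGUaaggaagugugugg
miR-133b-3p: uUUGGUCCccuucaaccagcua
miR-206-5p: aCAUGCUUcuuuauauccucaua
miR-1a-1-5p: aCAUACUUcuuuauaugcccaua
miR-133b-5p: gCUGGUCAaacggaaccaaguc

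The 3p arms carried the seeds that define the families. The seed GGAAUGU of miR-206-3p was found in the hairpins of Mir206, Mir1a-1 and Mir1a-2, and not in that of Mir1b. The same 7 letters stood on the sense strand of 13 of 2202 annotated miRNA hairpins (0.590%). The seed UUGGUCC of miR-133b-3p was found in the hairpins of Mir133b, Mir133a-1 and Mir133a-2, and in 9 of the 2202 (0.409%). Among 1738 mature RNAs of RefSeq's table, miR-6349 and miR-6382 had the miR-206-3p seed at bases 2 to 8. The table held no 3p arm of the miR-1a genes, so this search could not include those arms. The genes of miR-6349 and miR-6382, and Mir133c, whose hairpin also holds UUGGUCC, had 0 counts on either strand in both libraries. Other hairpins with these letters were not all without counts. Mir425, whose hairpin holds GGAAUGU but which gives none of the mature RNAs with that seed, had 10263 and 9761 sense counts.

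The 5p arms of Mir206 and Mir1a-1 were close relatives with different seeds. They differed at 3 of 23 bases, G5A, C17G and U19C, with the base of miR-206-5p first and positions counted from its 5′ end. The first of these falls in the seed, and no other mature RNA of the table had either seed. The table held no arm of Mir1a-2, so the 5p arm of that gene was not compared.

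In mm10 the genes lie in 3 pairs. Mir206 and Mir133b lie 3686 bases apart on the plus strand of chromosome 1, and each overlaps an exon of the long noncoding RNA gene Gm28653. Mir1a-1 (chromosome 2, 180389048 to 180389124) and Mir133a-2 (180398379 to 180398482) lie on the plus strand with 9254 bases between them. GENCODE places no gene over either, while RefSeq places both within its long noncoding RNA gene Mir1a-1hg. Mir1a-2 (chromosome 18, 10785481 to 10785552) and Mir133a-1 (10782909 to 10782976) lie on the minus strand, 2504 bases apart and in introns of Mir133a-1hg. On the plus strand this place is intronic in Mib1, a ubiquitin ligase gene, and holds Mir1b (10785446 to 10785567), whose span covers the whole of Mir1a-2.

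Copies of one family can give identical reads, and in these tables a read that matches several places is counted in no gene. Each hairpin was therefore compared in windows of 20 bases with every other annotated miRNA hairpin on both strands. Of the 6 listed genes, 5 shared at least 1 window with another place and Mir206 shared none. No hairpin outside the miR-1 and miR-133 genes held any of these windows. Across all 1894 listed genes with an annotated hairpin, 929 (49.0%) shared a window.

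The shared parts were the 3p side of the miR-1a hairpins and both sides of the miR-133a hairpins. Mir1a-1 and Mir1a-2 had a run of 28 identical bases, at bases 45 to 72 of the Mir1a-1 hairpin and 43 to 70 of the Mir1a-2 hairpin. The same bases, read on the other strand, are bases 38 to 65 of Mir1b. Mir133a-1 and Mir133a-2 had identical runs of 24 and 31 bases, which covered 55 of the 68 annotated bases of Mir133a-1 and 55 of the 104 of Mir133a-2. The file row of Mir133a-1 carries an older version of the identifier than the annotation, so its counted span may differ from the one compared.

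Mir133b shared much less. A single run of 21 bases was common to it and both miR-133a genes, and it lay at bases 66 to 86 of the hairpin. The mature miR-133b-3p printed above spans bases 66 to 87, so the run holds all of that arm but its last base. Of its 20-base windows 2 of 3 were shared, whereas none of its 22-base windows was. The 5p arms of Mir133b, Mir206 and Mir1a-1, and the 3p arm of Mir206, shared no 20-base window with any other hairpin.

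**Figure D1:**
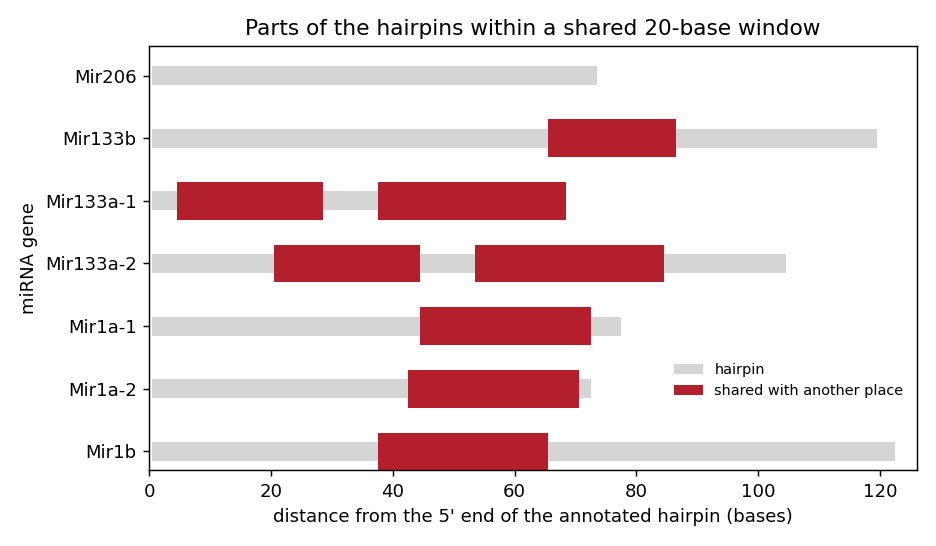
Each row is an annotated hairpin drawn from its 5′ end, with the distance in bases on the horizontal axis. Grey bars show the hairpin and red blocks the bases within a 20-base window that a miRNA hairpin at another place also holds. Mir206 has no red block, Mir133b has 1 of 21 bases, and the miR-133a genes have blocks of 24 and 31 bases.

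The libraries held 6473482 sense counts at miRNA genes in replicate 1 and 5841568 in replicate 2. Reads matching several places numbered 4482590 (29.5% of reads) and 4105896 (31.9%). Levels are given in CPM, counts per 1000000 sense counts of the library. Counts are of whole short RNAs and were not divided by hairpin length. How efficiently each miRNA was captured and sequenced was not tested, so an order of levels is an order of read counts. Intervals are exact Poisson 95% intervals and cover counting error only.

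Mir206 held nearly all counts of the 6 genes. It had 742 counts in replicate 1 and 1369 in replicate 2, which is 115 CPM (106.5 to 123) and 234 CPM (222 to 247). The 2 intervals do not overlap, and replicate 2 was the higher. The mean was 174 ± 84.7 CPM (SD, n = 2). Of the counts at the 6 genes, Mir206 made up 91.4% in replicate 1 (Wilson 95% interval 89.2 to 93.1) and 95.3% in replicate 2 (94.04 to 96.3). The other genes together had 70 counts in replicate 1 and 68 in replicate 2.

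Mir133b, its genomic partner, had 26 counts in replicate 1 and 27 in replicate 2. These are 4.02 CPM (2.62 to 5.88) and 4.62 CPM (3.05 to 6.72), so the 2 libraries overlapped, with a mean of 4.32 ± 0.43 CPM. Mir206 exceeded Mir133b 28.5-fold in replicate 1 (exact Clopper-Pearson 95% interval 19.3 to 44.0) and 50.7-fold in replicate 2 (34.7 to 77.2). The log2 ratio was 5.25 ± 0.59. The 2 intervals of the ratio overlap. A read that lies wholly within the 21-base run of miR-133b-3p matches several places and is in no gene's count, and Mir206 has no such run. How many such reads there were was not tested.

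Mir1a-1, which encodes the heart and skeletal muscle miRNA miR-1a, had 19 counts in replicate 1 and 11 in replicate 2. Its level was 2.94 CPM (1.77 to 4.58) and 1.88 CPM (0.940 to 3.37). Mir133a-2, the partner of Mir1a-1, had 0 counts in replicate 1, with a Poisson interval up to 0.570 CPM, and 3 counts or 0.514 CPM in replicate 2. In replicate 1 the 19 counts of Mir1a-1 were 6.33 times the floor of 3 counts set for the 0 of Mir133a-2. The exact lower limit of the ratio was 4.67. In replicate 2 the ratio was 3.67 (0.969 to 20.5), an interval that includes 1.

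On the other chromosome with a miR-1a gene, Mir133a-1 had 19 counts (2.94 CPM, 1.77 to 4.58) in replicate 1 and 14 (2.40 CPM, 1.31 to 4.02) in replicate 2. Its partner Mir1a-2, read as the opposite-strand counts at Mir1b, had 115 counts (17.8 CPM, 14.7 to 21.3) and 135 counts (23.1 CPM, 19.4 to 27.4). Mir1a-2 thus stood above Mir133a-1 6.05-fold in replicate 1 (3.71 to 10.4) and 9.64-fold in replicate 2 (5.55 to 18.1), a log2 ratio of 2.93 ± 0.48. Mir1a-2 also stood above Mir1a-1, the copy with the same 28-base run, 6.05-fold (3.71 to 10.4) and 12.3-fold (6.64 to 25.2). In each of the 3 pairs, and in both libraries, the miR-1 or miR-206 gene had more counts than the miR-133 gene. For Mir1a-1 and Mir133a-2 the interval of the ratio in replicate 2 included 1. Shared runs covered 28 bases of the Mir1a-2 hairpin and 55 of the Mir133a-1 hairpin. Reads wholly within shared runs are in no gene's count, and how far this shapes the order within pairs was not tested.

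Mir1b lies on the plus strand of that place. It had 6 sense counts in replicate 1 (0.927 CPM, 0.340 to 2.02) and 13 in replicate 2 (2.23 CPM, 1.18 to 3.81). Sense reads were 4.96% of its counts of either strand in replicate 1 (Wilson 95% interval 2.29 to 10.4) and 8.78% in replicate 2 (5.21 to 14.4). Over all listed genes the sense share was 94.3% and 93.9%. Mir1a-1 had 2 and 1 opposite-strand counts, and Mir206, Mir133b, Mir133a-1 and Mir133a-2 had 0. Of 11 listed genes with at least 10 opposite-strand counts and more opposite than sense counts in each library, Mir1b had the fewest opposite-strand counts.

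**Figure D2:**
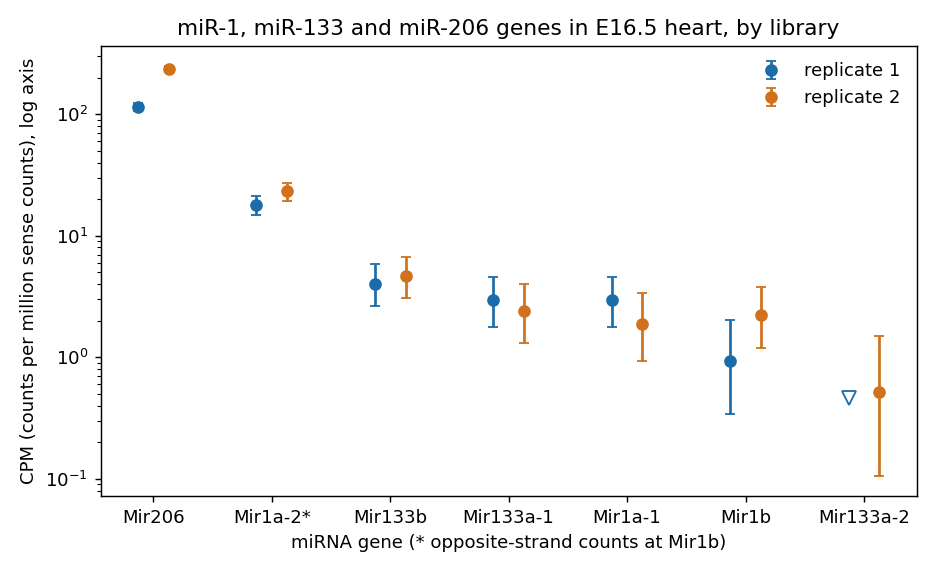
Points give the CPM of each gene in each library on a log axis, with exact Poisson 95% intervals as bars. The open triangle marks the fixed floor of 3 counts (0.463 CPM) set for the 0 counts of Mir133a-2 in replicate 1. The asterisk marks opposite-strand counts at Mir1b. Mir206 stands at 115 and 234 CPM, Mir1a-2 at 17.8 and 23.1 CPM, and the other genes below 5 CPM in both libraries.

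In order of mean level the genes were Mir206, Mir1a-2, Mir133b, Mir133a-1, Mir1a-1, Mir1b and Mir133a-2. The first 2 were separated from each other and from the rest in both libraries. From Mir133b down to Mir1b, neighbours in the order had overlapping intervals in both libraries, and so did Mir1b and Mir133a-2. These neighbouring places in the order are therefore not resolved at this depth. The ends of the order were apart, since the intervals of Mir133b lay above those of Mir133a-2 in both libraries. In replicate 1 the intervals of Mir133a-1 and Mir1a-1 also lay above that of Mir133a-2, and the interval of Mir133b above that of Mir1b.

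Of the 6 listed genes 4 were detected, with 10 or more sense counts in each library: Mir206, Mir133b, Mir133a-1 and Mir1a-1. Over all listed genes 365 of 1973 (18.5%) were detected. Listed genes that shared a 20-base window were detected in 81 of 929 cases (8.72%), and those that shared none in 284 of 965 (29.4%). Of the 5 genes here that shared one, 3 were detected, each with fewer than 30 counts in both libraries. How many of the multiply matching reads came from miR-1a or miR-133a was not tested, since the tables give their number for the whole library only. Those reads were 5520 times the counts at the 6 genes in replicate 1 and 2857 times in replicate 2.

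Among the 365 detected genes Mir206 ranked 151 by mean CPM. Next above it were Mir540 (191 ± 7.87 CPM) and Mir302d (185 ± 13.9 CPM), and next below it Mir362 (171 ± 39.4 CPM) and Mir3071 (171 ± 7.02 CPM). The SD of Mir206 exceeded each gap, so its place among these neighbours is not resolved. Mir133b ranked 313, below Mir5618 and Mir5626 and above Mir6546 and Gm24245. Mir6546 had the same 26 and 27 counts as Mir133b. Mir133a-1 ranked 342, below Mir7666 and Mir1947 and above Mir3075 and Mir1982. Mir1a-1 ranked 346, below Mir1982 and Mir19b-2 and above Mir1948 and Mir1945. These neighbours had 30 or fewer counts per library, except Mir5626 and Gm24245 with 34 and 32 in replicate 1.

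The miRNA genes that lie within cardiac myosin genes were taken as markers of heart muscle, and were far higher. Mir208b, of Myh7, exceeded Mir206 516-fold in replicate 1 (480 to 555) and 245-fold in replicate 2 (232 to 259). Mir499, of Myh7b, had the lowest level of the 3 and still exceeded Mir206 22.5-fold (20.9 to 24.3) and 11.1-fold (10.5 to 11.7). The libraries held abundant heart muscle markers beside few counts at the miR-1 and miR-133 genes. Reads wholly within the shared runs of the miR-1a and miR-133 genes are in no gene's count. The few counts therefore do not give the levels of miR-1 and miR-133 in the heart. Mir486, a miRNA of red blood cells and striated muscle, stood at 81.1 and 85.9 CPM. Of the markers of other organs, the liver miRNA gene Mir122 stood at 160 and 161 CPM. The 4 listed miR-124 and miR-9 genes of the brain list came to 2.63 and 0.171 CPM. Reads that match several copies of these brain genes are in no gene's count, and their number was not tested. The sum therefore does not give the level of the brain miRNAs.

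**Figure D3:**
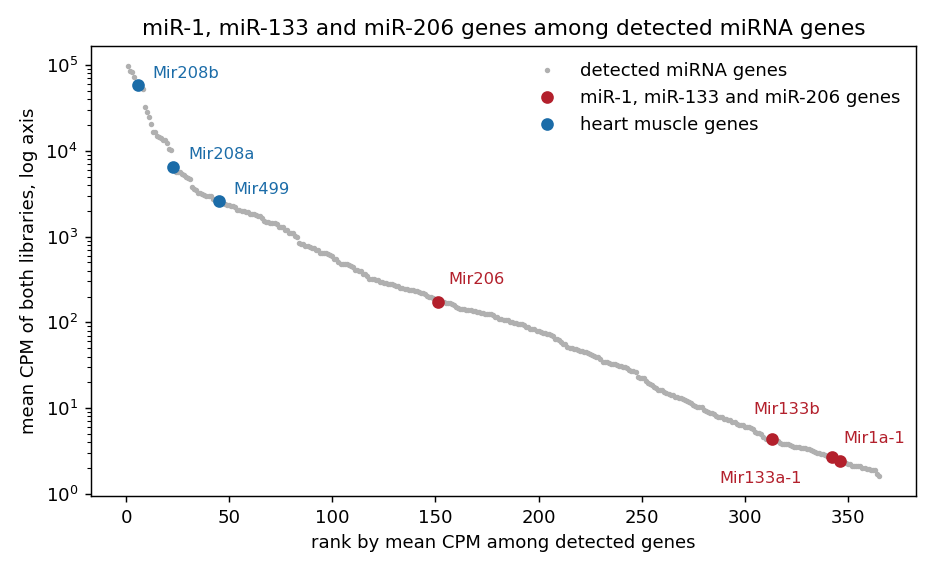
The 365 detected genes are placed by rank on the horizontal axis and by mean CPM of both libraries on a log vertical axis. Mir206 lies at rank 151 in the middle of the curve, Mir133b, Mir133a-1 and Mir1a-1 lie at ranks 313, 342 and 346, and the heart muscle genes Mir208b, Mir208a and Mir499 lie at ranks 6, 23 and 45.

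The pools were then compared gene by gene over the 365 detected genes. Mir206 was 2.08-fold higher in replicate 2, a log2 ratio of 1.06. The two-sided exact binomial test with Benjamini-Hochberg adjustment gave an adjusted p of 5.3e-60. The ratio lies just above the 2-fold limit for a call. This test counts sampling error only and compares these 2 libraries, not conditions. The spread between the pools was then added through edgeR's exact negative binomial test, with a coefficient of variation of 17.6%. That value was estimated from these same 2 libraries as a single value for all genes, so the differences tested are part of it. By this test the adjusted p of Mir206 was 0.263 (unadjusted 0.00432) and the call was lost.

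The 3 remaining detected genes did not pass the test. Mir133b had a log2 ratio of 0.23 (adjusted p = 0.702 by the exact binomial test), Mir133a-1 of -0.25 (adjusted p = 0.825) and Mir1a-1 of -0.59 (adjusted p = 0.404). So 1 of 4 tested genes was called, against 12 of 365 detected genes (3.29%), of which 6 (1.64%) were higher in replicate 2. By the size of its ratio Mir206 ranked 11 of the 365. The median log2 ratio was -0.013 for the 4 genes and 0.018 for all detected genes, with a median size of 0.21 over all. Mir133b, which overlaps the same long noncoding RNA gene as Mir206, had an interval in each library that overlapped the other. Whether the ratios of Mir206 and Mir133b differ from each other was not tested.

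**Figure D4:**
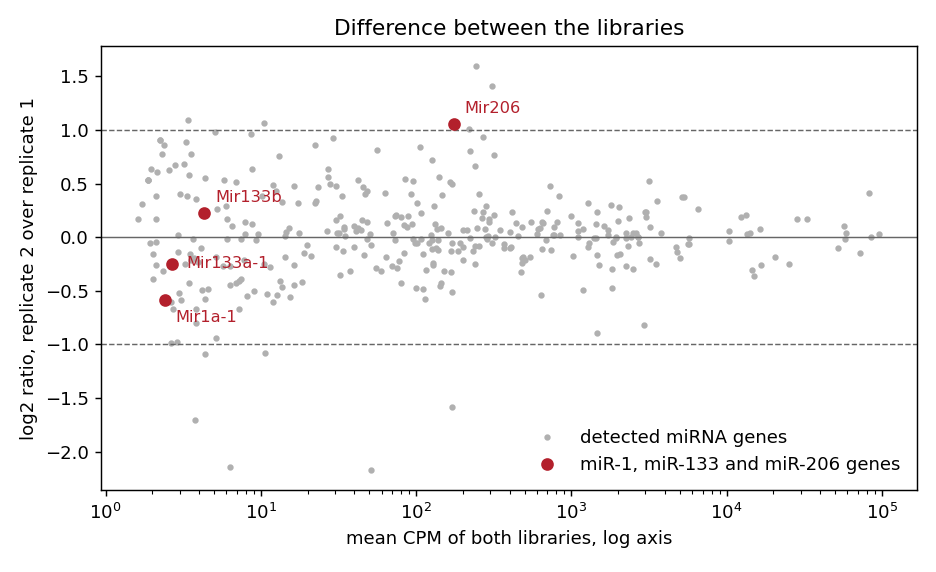
Each point is a detected gene, with its mean CPM on a log horizontal axis and its log2 ratio of replicate 2 over replicate 1 on the vertical axis. Dashed lines mark 2-fold. Mir206 lies at 1.06, above the upper line, and Mir133b, Mir133a-1 and Mir1a-1 lie at 0.23, -0.25 and -0.59, within the scatter of genes at their level.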

How the data were processed

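Small RNA from 2 pools of E16.5 mouse hearts was measured by microRNA-seq. The authors deposited raw counts of reads per miRNA gene, with 3 columns per table: either strand and each strand separately. Per the file lists deposited with the libraries, the counts were made on mm10 with annotation M4. The aligner, counter and trimming are not given in the sources used here. The first 4 lines of each table hold no gene and were left out of gene totals: in replicate 1 and replicate 2 they held 22.4% and 17.2% of reads (unmapped), 29.5% and 31.9% (several places), 2.99% and 2.66% (outside the listed genes), and 0 ambiguous reads. Of the strand columns, the one with more gene counts in both libraries was read as sense.

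Symbols, positions and hairpins are those of GENCODE M21, also on mm10, which held 1894 of 1973 listed identifiers. Mature sequences came from RefSeq. TMM scaling, the dispersion and the negative binomial test used edgeR 4.0.16 in R 4.3.3, with DESeq2 1.42.0 size factors as an alternative. With 1 group there was no contrast for edgeR's quasi-likelihood test. Exact binomial tests, Wilson, Clopper-Pearson and Poisson intervals used scipy 1.17.1 in Python 3.11.15. A call needed 10 counts in each library, an adjusted p under 0.05 over all detected genes and a 2-fold difference, and 0.5 was added to each count for log2 ratios. The comparison was tested on simulated data with counting error only, so that check does not cover the spread between the pools. For a count of 0 a fixed floor of 3 counts was set, 0.463 CPM in replicate 1 and 0.514 CPM in replicate 2. PCR copies are not independent molecules.

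The genes, lists and tests were chosen with earlier results of these data known. Genes named are the 6 genes and Mir1a-2, the muscle and other-tissue markers, the genes next in level and those that share a 20-base window. The genes named for a shared seed, or for its letters in the hairpin, were chosen after their values were seen. The red blood cell genes of the marker lists came to 2037 and 1719 CPM, smooth muscle to 97337 and 98086, endothelium to 85876 and 84222, heart muscle to 67703 and 67120, skeletal muscle to 119 and 239, and striated muscle to 87.0 and 90.7. Of the striated muscle sum Mir486 alone gave 81.1 and 85.9 CPM, and Mir1a-2 is not in it.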

Additional observations from a re-analysis of the deposited data

How the results depend on the processing

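The direction of every ratio of the libraries, and of both log2 ratios within genomic pairs, was the same under all alternatives run. Mir206 stayed called with total-count scaling, DESeq2 size factors, unstranded counts, no count filter and no minimum fold, with log2 ratios from 1.03 to 1.06. With the negative binomial test it was not called (log2 ratio 1.06, adjusted p = 0.263), 0 of the 4 tested genes here were called and 1 had an unadjusted p under 0.05. That test called 5 of 365 genes in place of 12. Without a count filter 21 of 725 genes were called, and without a minimum fold 169 of 365, by testing more genes or dropping the fold limit. Divided by all reads of the library, the summed level of the 6 genes was 82.5 per 1000000 in place of 186 ± 85.2, through the larger total. Without replicate 1 or replicate 2 it was 246 and 125. With 30 counts required, 1 gene (Mir206) was detected in place of 4. Unstranded counts raised Mir1b from 1.58 to 20.7 CPM, since they add the opposite-strand reads. With 18-base windows 5 of 6 genes shared one, and with 22 bases 4. A search of the whole genome was not run, as only annotation and transcripts were used here. No paired analysis was possible because there is a single group. Mir133a-2 and Mir1b had at most 13 sense counts per library, which limits the precision of their levels.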
